A study of Homo sapiens with 46 samples.

Results

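The mitochondrial ribosomal protein genes were taken as the protein-coding genes whose symbol begins with MRPL or MRPS followed by a number, and 78 of the 60668 genes in each count table met this rule. Of these, 51 encode proteins of the large subunit, 26 encode proteins of the small subunit, and MRPS36 keeps the name although its product is now placed in the 2-oxoglutarate dehydrogenase complex of the mitochondrial matrix. Splicing events whose gene field was one of these genes numbered 712 of 179118 in the 200 nM table, 546 of 139012 in the 50 nM table, 689 of 218608 in the siRNA table and 499 of 138022 in the xenograft table. All 78 genes passed the filter on low counts in every table.

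The series tested ASO-1570, an antisense oligonucleotide directed at the transcript of the splicing factor TRA2B. Cells were transfected for 48 h with ASO-1570 or a control oligonucleotide, both at 200 nM or both at 50 nM, or with a TRA2B siRNA or a control siRNA, both at 10 nM. These treatments were given to MDA-MB-231, a breast carcinoma line written MDA-MB231 in the labels, and to U87MG, a glioblastoma line, which gives 12 groups of 3 libraries. A breast carcinoma patient-derived xenograft (PDX) grown in mice received ASO-1570 or the control oligonucleotide at 50 mg per kg by injection into the tumour 3 times a week for 4 weeks, with 5 libraries per group. Each cell line is 1 line, the xenograft tumours all carry the name of 1 PDX model, the labels call the host mice immunocompetent, host cells can be present in a tumour sample, and the labels do not say that libraries of a group came from separate cultures, so p-values measure the spread between these libraries.

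Mitochondrial ribosomes translate the mRNAs of the 13 protein-coding genes of the mitochondrial genome, which encode core subunits of the respiratory chain and of ATP synthase. Their 2 rRNAs come from the mitochondrial genome, while every ribosomal protein is encoded in the nucleus, made in the cytosol and imported. Some of these proteins, 47 of the 78 genes, have a bacterial counterpart, and the rest were added in the evolution of mitochondria. A cassette exon is an exon that a transcript either includes or skips, and PSI (percent spliced in) is the fraction of transcripts that include it, from 0 to 1. TRA2B belongs to the SR-like splicing factors and is known to favour inclusion of exons rich in GAA triplets.

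The libraries held 260 to 357 M counts (M, 1e6) in the 200 nM experiment and 75.0 to 113 M counts in the others. TRA2B fell in all 6 cell line comparisons, by a log2 change of -3.11 with siRNA in MDA-MB-231, -2.83 with siRNA in U87MG and -0.76 to -1.13 with ASO-1570, and its log2 difference of -0.16 in the PDX did not pass the test. Its paralog TRA2A rose in the same 6 comparisons. The labels of the lines were checked on the control libraries. At 200 nM KRT8 lay at 922 to 1011 CPM in MDA-MB-231 and at 3.61 to 4.24 CPM in U87MG, and TNC at 102 to 105 CPM in MDA-MB-231 and at 2254 to 2347 CPM in U87MG (CPM, counts per 1e6 counts of a library, TMM-scaled). In the MDA-MB-231 control libraries of the 50 nM and siRNA experiments KRT8 lay at 496 to 562 CPM and TNC at 96.9 to 121 CPM, and in those of U87MG KRT8 lay at 2.93 to 4.55 CPM and TNC at 2153 to 2441 CPM. Against the glial label, GFAP was at 0.07 to 0.11 CPM in U87MG, SOX2 was near 0 in both lines, and 1 label field calls the MDA-MB-231 libraries glioblastoma cells outside the 200 nM experiment, against their names. The MDA-MB-231 library of replicate 2 with 200 nM ASO-1570 stood apart in the members, whose summed level was 5273 CPM there, against 4284 and 4150 CPM in the other 2 libraries of its group.

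ASO-1570 changed individual mitochondrial ribosomal protein genes in both directions. In U87MG cells 25 members rose and 15 fell at 200 nM (edgeR quasi-likelihood test, adjusted p below 0.05), with 25.8% of the 26159 genes tested called higher and 23.9% called lower. At 50 nM 31 members rose and 16 fell in U87MG, against a background of 27.9% and 26.7%. In MDA-MB-231 cells 16 members rose and 7 fell at 200 nM, where 11.7% and 13.6% of all genes were called. At 50 nM 2 members rose and 17 fell in MDA-MB-231, with 10.1% and 13.2% of all genes called. The median log2 change of the 78 members was 0.02 and 0.06 in U87MG at 200 nM and 50 nM and 0.14 and -0.06 in MDA-MB-231, against medians of all genes between 0.00 and 0.02. The log2 change was above 0 for 44 and below 0 for 34 members in U87MG at 200 nM, and for 50 and 28 at 50 nM. In MDA-MB-231 it was above 0 for 61 and below 0 for 17 at 200 nM, and for 29 and 49 at 50 nM. The 16 rises in MDA-MB-231 at 200 nM depended on the fit and on single libraries. A replicate block left 4 and a fit of the MDA-MB-231 groups alone left 2. Without the filter on low counts the rises were 9 in MDA-MB-231 at 200 nM, in place of 16, and 20 in U87MG at 50 nM, in place of 31. Without ASO-1570 replicate 2, the library that stood apart, there were 10 rises and 12 falls, without ASO-1570 replicate 3 there were 29 rises, and without control replicates 1, 2 and 3 there were 5, 1 and 7. The 25 rises in U87MG at 200 nM became 16 without ASO-1570 replicate 2 and 11 without control replicate 3. At 50 nM in MDA-MB-231 the 17 falls became 11 without ASO-1570 replicate 2, and the 2 rises became 1 without the filter and without any of 4 of the 6 libraries.

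**Figure D1:**
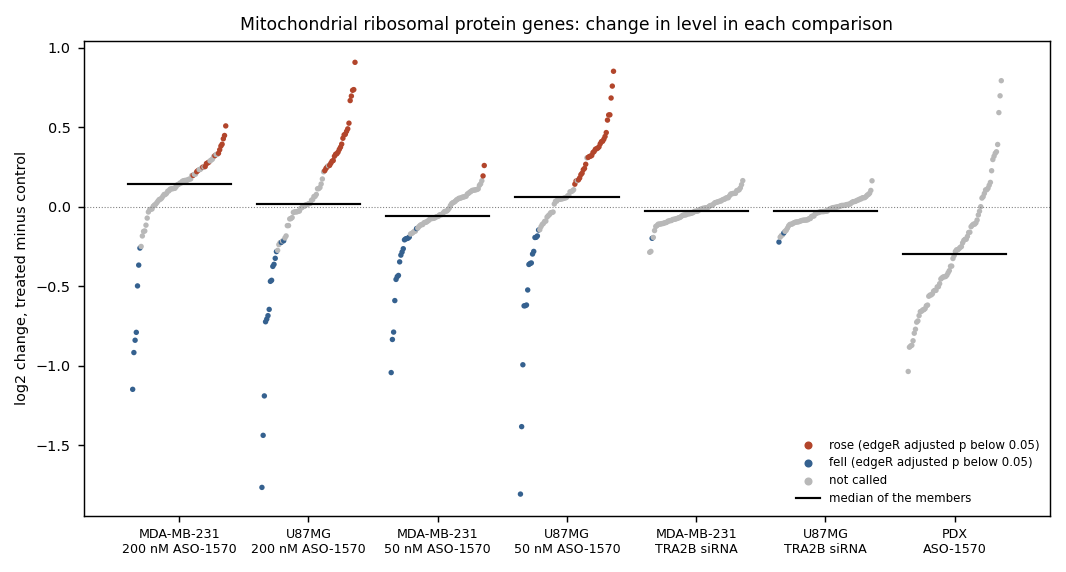
Each point is 1 of the 78 mitochondrial ribosomal protein genes, ordered by its log2 change (treated minus control, vertical axis) within each of the 7 comparisons, with rises in red, falls in blue, uncalled genes in grey and the median as a black line. A few falls reach log2 changes of -1.77 and -1.81 in U87MG, the rises stay below 1, and the siRNA comparisons are almost flat.

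Neither subunit carried the changes alone. In U87MG at 200 nM the 51 genes of the large subunit gave 16 rises and 9 falls and the 26 of the small subunit gave 8 and 6. The 47 genes with a bacterial counterpart gave 15 rises and 8 falls there, and the 31 without one gave 10 and 7. Among all genes 25.8% rose and 23.9% fell in that comparison. At 50 nM in MDA-MB-231 the large subunit gave 2 rises and 12 falls and the small subunit 0 and 5. Among all genes 10.1% rose and 13.2% fell there.

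MRPS31, MRPS9, MRPS27, MRPL30 and MRPL24 fell in all 4 cell line comparisons with ASO-1570, 5 of the 78 members, as 7.53% of the 22568 genes tested in both tables did. MRPL43 rose in all 4, as 3.67% of those genes did.

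MRPS31 (ENSG00000102738.8, GRCh38 chr13:40729135-40771173, minus strand) encodes a small subunit protein with no bacterial counterpart and showed the largest fall of the members in each of these 4 comparisons. In U87MG at 200 nM it had 9.69, 9.54 and 9.48 CPM with ASO-1570, against 31.8, 33.4 and 32.5 CPM with the control oligonucleotide. In U87MG at 50 nM it had 10.1, 8.74 and 9.31 CPM with ASO-1570, against 31.5, 34.2 and 32.8 CPM. The U87MG groups were thus far apart at both doses, with no overlap, and the level was 3.40-fold and 3.50-fold lower with ASO-1570 (log2 change -1.77, SE 0.08, edgeR adjusted p = 1.02e-07 at 200 nM and -1.81, SE 0.13, edgeR adjusted p = 9.69e-07 at 50 nM). MDA-MB-231 cells had 7.63, 8.79 and 9.17 CPM with 200 nM ASO-1570, against 18.6, 18.6 and 19.6 CPM with control, and 8.23, 9.24 and 12.2 CPM with 50 nM ASO-1570, against 19.4, 22.2 and 19.5 CPM. These log2 changes of -1.15 and -1.04 were called by edgeR with adjusted p of 4.9e-06 and 1.73e-04. With the TRA2B siRNA the gene lay at 16.5, 15.5 and 15.6 CPM in MDA-MB-231, against 14.5, 15.3 and 13.5 CPM with control siRNA, and at 20.6, 22.6 and 20.2 CPM in U87MG, against 20.4, 20.6 and 20.5 CPM. Neither siRNA difference passed the test (edgeR adjusted p = 0.215 and 0.795).

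The 2 pseudogenes of MRPS31 that passed the filter on low counts did not fall with it in the cell lines. Counts of all its pseudogenes amounted to 26.6% of those of MRPS31 in the 200 nM table, the only member for which this share passed 10%, and reads of near-identical copies can be split between them. MRPS31P4 rose in all 4 ASO-1570 comparisons, with log2 changes at 200 nM and 50 nM of 1.32 and 0.70 in U87MG and of 0.68 and 0.69 in MDA-MB-231. MRPS31P5 rose in U87MG by 1.02 and 0.79 and was not called in MDA-MB-231 (0.22 and 0.02; all edgeR). Neither pseudogene was called with siRNA or in the PDX.

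MRPS9 (ENSG00000135972.9, chr2:105037983-105099960, plus strand), the counterpart of bacterial S9 in the small subunit, had the next largest fall in U87MG. U87MG cells had 14.7, 11.9 and 12.3 CPM with 200 nM ASO-1570, against 34.4, 35.3 and 35.7 CPM with control, and 17.2, 14.3 and 16.9 CPM with 50 nM, against 40.9, 44.3 and 41.1 CPM. In MDA-MB-231 the level was 18.1, 21.6 and 22.6 CPM with 200 nM ASO-1570, against 37.0, 36.1 and 38.4 CPM with control. At 50 nM MDA-MB-231 cells had 22.7, 27.4 and 30.7 CPM, against 47.3, 47.3 and 44.9 CPM. No treated library of either line reached a control library of its experiment, and the log2 changes were -1.44 and -1.38 in U87MG and -0.84 and -0.79 in MDA-MB-231. With siRNA the log2 difference was -0.01 in each line.

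MRPS27 (chr5:72219409-72320646), a pentatricopeptide repeat protein of the small subunit, fell more in MDA-MB-231 than in U87MG. Its level was 65.6, 60.0 and 66.4 CPM in MDA-MB-231 with 200 nM ASO-1570, against 122, 120 and 120 CPM with control, a log2 change of -0.92 (SE 0.06). In U87MG it was 75.5, 76.9 and 73.6 CPM with 200 nM ASO-1570, against 117, 120 and 117 CPM, a log2 change of -0.65 (SE 0.06). The difference between the lines passed the edgeR test at 200 nM (-0.27, adjusted p = 0.026) and at 50 nM (-0.21, adjusted p = 0.030).

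MRPL30 and MRPL24, both large subunit proteins with bacterial counterparts, completed the shared falls. MRPL30 (chr2:99181079-99197626) had 37.5, 35.1 and 40.3 CPM in MDA-MB-231 with 200 nM ASO-1570, against 65.6, 68.6 and 61.0 CPM with control, and its log2 changes over the 4 comparisons lay between -0.79 and -0.59. Genes annotated on the same strand share 32.6% of its exon bases, so its counts may include theirs. MRPL24 (chr1:156737303-156741590) had 41.0, 34.9 and 37.1 CPM in U87MG with 200 nM ASO-1570, against 85.8, 85.7 and 86.2 CPM with control, and log2 changes of -1.19 and -0.99 in U87MG. In MDA-MB-231 its 200 nM values of 57.2, 83.2 and 64.7 CPM, against 89.0, 84.3 and 91.2 CPM, came close to overlapping, and this call (log2 change -0.37) was lost with a replicate block, without the filter on low counts, in the fit of these groups alone and without any of 5 of the 6 libraries.

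MRPL43 (chr10:100969458-100987515), a large subunit protein, was the single member that rose in all 4 ASO-1570 comparisons. Its level was 59.6, 77.1 and 58.1 CPM in MDA-MB-231 with 200 nM ASO-1570, against 48.5, 45.9 and 50.5 CPM with control, and 34.3, 34.4 and 35.2 CPM in U87MG with 50 nM, against 26.6, 27.9 and 26.4 CPM. The log2 changes were small, 0.43 and 0.19 in MDA-MB-231 and 0.26 and 0.36 in U87MG. The call in U87MG at 200 nM did not survive leaving out any 1 of its 6 libraries, and that in MDA-MB-231 at 50 nM was lost without any 1 of 4 libraries. Opposite-strand genes, SEMA4G and TWNK, share 36.9% of the exon bases of MRPL43, and the strand used in counting is not given in the sources used here.

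**Figure D2:**
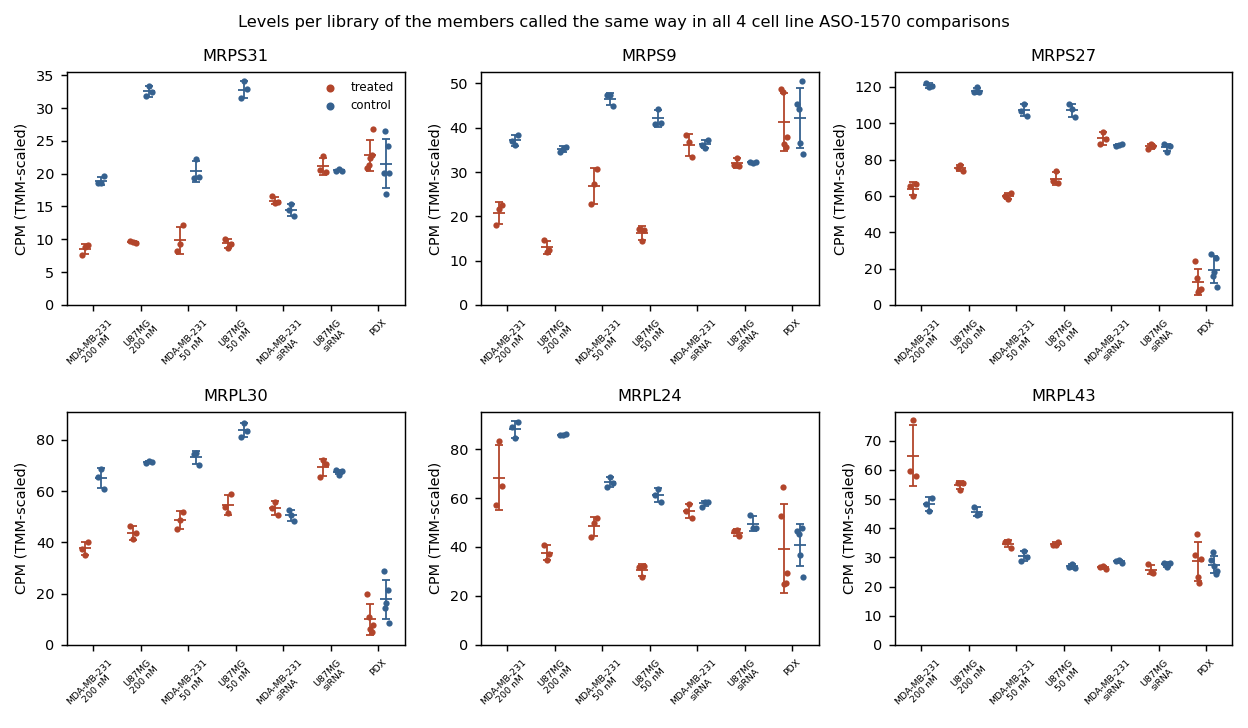
Levels (CPM, TMM-scaled) of the 6 members called the same way in all 4 cell line ASO-1570 comparisons, 1 point per library, treated in red left of control in blue, with the mean and SD. MRPS31 and MRPS9 drop below every control library with ASO-1570 in both lines, and neither gene was called with siRNA in either line.

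The largest called rises were in U87MG. MRPS30, a large subunit protein despite its S, had 77.3, 91.9 and 86.6 CPM in U87MG with 200 nM ASO-1570, against 44.6, 47.0 and 44.7 CPM with control (log2 change 0.91, edgeR adjusted p = 2.32e-06). At 50 nM it had 65.6, 74.5 and 59.9 CPM, against 47.7, 48.0 and 49.2 CPM (0.47). All treated U87MG libraries lay above all controls, whereas in MDA-MB-231 the values at 200 nM were 50.0, 48.9 and 45.5 CPM, against 44.5, 46.7 and 42.2 CPM, and overlapped.

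MRPL49, also of the large subunit, rose in U87MG too. It had 120, 128 and 120 CPM in U87MG with 200 nM ASO-1570, against 75.5, 72.7 and 72.7 CPM with control, and 86.1, 94.5 and 76.2 CPM with 50 nM, against 52.1, 50.1 and 49.6 CPM. The log2 changes were 0.74 and 0.76 in U87MG and 0.05 and 0.01 in MDA-MB-231. FAU and SYVN1 on the opposite strand share 20.7% of its exon bases.

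Further rises in U87MG came from MRPL1, which forms the stalk beside the tRNA exit site, and from MRPL33, MRPL52, MRPS16 and MRPL57. MRPL1 had 39.1, 42.4 and 41.9 CPM with 200 nM ASO-1570, against 26.1, 24.4 and 23.8 CPM with control, and 34.3, 38.2 and 34.4 CPM with 50 nM, against 21.1, 23.4 and 22.0 CPM. MRPL52 had 22.0, 24.5 and 19.3 CPM with 50 nM ASO-1570, against 12.5, 12 and 11.9 CPM with control, the largest rise of the members in that comparison (log2 change 0.85). MRPL33 rose by 0.70 and 0.58, MRPS16 by 0.49 and 0.54 and MRPL57 by 0.32 and 0.58 at 200 nM and 50 nM. In all, 24 members rose in both U87MG comparisons, as 21.3% of genes did, and 13 fell in both, as 22% did. In MDA-MB-231 only MRPL43 rose at both doses, with 6.11% of genes doing so, and 6 members fell at both, with 10.8% of genes doing so.

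MRPS6, the counterpart of bacterial S6, was called in U87MG and not in MDA-MB-231. It had 76.1, 55.8 and 67.8 CPM with 200 nM ASO-1570, against 120, 105 and 104 CPM with control (log2 change -0.72), and fell by 0.62 on the log2 scale at 50 nM. The difference between the lines was 0.81 at 200 nM (edgeR adjusted p = 0.0040) and 0.53 at 50 nM (0.013). SLC5A3 and another gene on its strand share 13.2% of its exon bases.

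The lines differed in their response for part of the members. At 200 nM the effect of ASO-1570 in MDA-MB-231 minus that in U87MG was positive for 9 members and negative for 6 (edgeR interaction, adjusted p below 0.05), against 11.5% and 12.1% of all genes. At 50 nM it was positive for 7 and negative for 27 members, against 14.3% and 13.9% of all genes, and the count of 27 was 13 without the filter on low counts and 16, 16 and 17 without MDA-MB-231 control replicate 2, U87MG ASO-1570 replicate 2 and U87MG control replicate 3. The 6 negative differences at 200 nM became 21 without the MDA-MB-231 ASO-1570 library of replicate 2. The smallest p-values belonged to MRPL49 (-0.68) and MRPS30 (-0.79) at 200 nM and to MRPS10 (-0.50) and MRPL49 (-0.75) at 50 nM. At 200 nM the difference of MRPS10 was -0.49. MRPS10, the counterpart of bacterial S10, had 173, 169 and 180 CPM in MDA-MB-231 with 200 nM ASO-1570, against 249, 256 and 233 CPM with control, and 54.1, 55.8 and 56.1 CPM in U87MG, against 55.8, 55.4 and 55.5 CPM. It thus fell in MDA-MB-231, where its control level was several times that of U87MG, and its U87MG values overlapped. With siRNA no member differed between the lines, where 0.527% of all genes did, none had an unadjusted p below 0.05, and DESeq2 also called 0.

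With the TRA2B siRNA, which went with larger log2 falls of TRA2B than ASO-1570 in its own experiment, nearly all of these genes were uncalled. In MDA-MB-231 0 members rose and MRPL19 fell, where 3.65% of all genes rose and 3.6% fell. In U87MG 0 members rose and MRPL1 and MRPS5 fell, where 1.6% rose and 2.6% fell. DESeq2 called 4 falls in MDA-MB-231 and 3 in U87MG and 0 rises in each, and 10 members had an unadjusted p below 0.05 in each line. All 78 log2 changes lay between -0.29 and 0.16 in MDA-MB-231 and between -0.22 and 0.16 in U87MG.

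MRPL19, the counterpart of bacterial L19, had 114, 114 and 107 CPM in MDA-MB-231 with the TRA2B siRNA, against 131, 127 and 127 CPM with control siRNA (log2 change -0.20, edgeR adjusted p = 0.015), and 89.0, 96.5 and 100 CPM in U87MG, against 105, 108 and 105 CPM (-0.15, adjusted p = 0.067). With ASO-1570 at 50 nM in MDA-MB-231 it rose, at 130, 130 and 124 CPM, against 110, 105 and 105 CPM. MRPL1 had 15.5, 16.3 and 15.8 CPM in U87MG with the TRA2B siRNA, against 18.2, 18.4 and 19.0 CPM with control siRNA (-0.22, edgeR adjusted p = 0.013). These siRNA calls were each lost without some single library: MRPL19 without any of 3, MRPL1 without any of 2 and MRPS5 without any of the 6.

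A fit of the 50 nM and siRNA tables together, added after the data were seen, tested the effect of 50 nM ASO-1570 minus that of the siRNA. It was higher for 25 and lower for 13 members in U87MG, where 40.1% of all genes differed in either direction, and higher for 3 and lower for 13 in MDA-MB-231, where 15.8% did. The 3 became 6 without ASO-1570 replicate 3 of MDA-MB-231. MRPS31 differed by -1.88 (SE 0.14) in U87MG and -1.18 (SE 0.14) in MDA-MB-231, and MRPL1 by 0.88 (SE 0.09) in U87MG. The experiments were separate, so reagent and experiment cannot be told apart here. No member was called in the same direction in all 3 comparisons of a line, while among all genes 0.321% were called higher and 1.19% lower in MDA-MB-231, and 0.568% higher and 1.49% lower in U87MG.

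Most called splicing events of these genes were in U87MG with ASO-1570, without a test of the difference in PSI between lines. Of their events, 55 of 237 tested were called at 200 nM, in 24 genes, with 19.6% of all events called (limma on PSI, adjusted p below 0.05 and a mean difference of at least 0.10). At 50 nM 33 of 195 were called in 14 genes, with 13.8% of all events called. In MDA-MB-231 8 of 208 events in 6 genes were called at 200 nM, with 1.42% called in all, and 0 of 164 at 50 nM, with 0.194% called in all and 30 member events at an unadjusted p below 0.05. None was called with siRNA in MDA-MB-231 (0 of 142) or U87MG (0 of 144) or in the PDX (0 of 222), where the share of all events called was 0% and 5, 13 and 9 member events had an unadjusted p below 0.05. Both U87MG doses shared 27 called events, 7 were called in both lines at 200 nM, and no event changed in opposite directions. These overlaps were not counted over the events of all genes, so they have no background share. The 8 calls in MDA-MB-231 went to 0 with a replicate block, to 16 without ASO-1570 replicate 3 and to 0 or 1 without any other single library. The 33 calls in U87MG at 50 nM went to 14 with a replicate block and to 14, 15 and 17 without control replicates 1, 2 and 3. The 0 calls in MDA-MB-231 at 50 nM became 4 without ASO-1570 replicate 3.

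At 200 nM in U87MG PSI was lower for 40 and higher for 15 of the called events, and at 50 nM for 25 and 8. Cassette events made up 44 of the 55 called events at 200 nM and 28 of the 33 at 50 nM. No split by direction or by type over the events of all genes was used here. The called cassette events of the 200 nM comparison concerned 35 distinct exons, of which 12 had a length that is a multiple of 3. Exons of 6 members with a called event in U87MG follow, chosen after their values were seen and in no order of size, each read from the annotated transcripts of GENCODE v29 (GRCh38) in the sense of the gene, with every GAA triplet in capitals, since GAA-rich sequence is what TRA2B is known to bind.

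MRPL21 exon 2, chr11:68900548-68900605, minus strand, 58 bases, coding: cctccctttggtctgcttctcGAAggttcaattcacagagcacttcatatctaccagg
MRPL2 exon 5, chr6:43055897-43056007, minus strand, 111 bases, coding: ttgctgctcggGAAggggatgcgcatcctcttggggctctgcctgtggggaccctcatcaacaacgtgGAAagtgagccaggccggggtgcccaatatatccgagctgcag
MRPS31 exon 5, chr13:40754019-40754092, minus strand, 74 bases, coding: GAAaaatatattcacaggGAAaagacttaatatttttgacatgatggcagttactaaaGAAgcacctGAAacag
MRPS9 exon 8, chr2:105092401-105092569, plus strand, 169 bases, coding: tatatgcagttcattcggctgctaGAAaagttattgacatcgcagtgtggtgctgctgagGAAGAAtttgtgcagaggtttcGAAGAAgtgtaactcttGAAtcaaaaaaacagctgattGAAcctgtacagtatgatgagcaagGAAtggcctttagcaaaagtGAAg
MRPL39 exon 8, chr21:25592812-25592965, minus strand, 154 bases, coding: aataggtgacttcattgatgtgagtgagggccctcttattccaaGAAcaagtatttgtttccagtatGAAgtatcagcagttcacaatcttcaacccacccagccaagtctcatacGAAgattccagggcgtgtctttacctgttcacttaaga
MRPS18B exon 6, chr6:30624883-30624942, plus strand, 60 bases, coding: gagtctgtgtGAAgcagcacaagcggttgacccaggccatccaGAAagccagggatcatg

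MRPL21, the counterpart of bacterial L21, had lower inclusion of a longer form of its second exon with ASO-1570. The event that was called in 3 of the 4 ASO-1570 comparisons concerns this longer form, chr11:68900535-68900605, 71 bases. The PSI values here are not those of the 58-base exon printed above. Its PSI was 0.426, 0.314 and 0.359 in U87MG with 200 nM ASO-1570, against 0.966, 0.983 and 0.968 with control (mean difference -0.61, limma adjusted p = 6.71e-04). At 50 nM it was 0.380, 0.331 and 0.422 in U87MG, against 0.988, 0.984 and 0.942. MDA-MB-231 cells had 0.523, 0.536 and 0.646 with 200 nM ASO-1570, against 0.942, 0.961 and 0.947 (limma adjusted p = 0.029), and 0.646, 0.591 and 0.792 with 50 nM, against 0.942, 0.964 and 0.938 (adjusted p = 0.18). Treated and control libraries did not overlap in any of these comparisons, and an exact permutation test on 3 against 3 libraries gave its smallest possible two-sided p of 0.1 in each. With siRNA every library of both lines lay between 0.925 and 1.0. The level of the gene moved little, with log2 differences between -0.24 and -0.07, of which those at 50 nM passed the edgeR test in MDA-MB-231 (-0.20) and U87MG (-0.18).

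MRPL2, the counterpart of bacterial L2 near the catalytic centre of the large subunit, skipped its exon 5. The exon is in 2 events, and PSI of the one with the smaller p was 0.567, 0.444 and 0.475 in U87MG with 200 nM ASO-1570, against 0.995, 0.999 and 0.996 with control, and 0.602, 0.508 and 0.658 with 50 nM, against 0.986, 0.997 and 1.0. In MDA-MB-231 it was 0.695, 0.711 and 0.816 with 200 nM, against 0.993, 0.996 and 0.999, a difference of -0.26 that missed the threshold (limma adjusted p = 0.051). All 111 bases of this exon are coding in the principal transcript, and the level of MRPL2 was not called in any treatment comparison.

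MRPS31 and MRPS9, the members with the largest falls in U87MG, also skipped exons. MRPS31 exon 5 had a PSI of 0.613, 0.448 and 0.615 in U87MG with 200 nM ASO-1570, against 0.998, 0.997 and 0.996 with control, and 0.708, 0.573 and 0.637 with 50 nM, against 0.992, 0.995 and 1.0. In MDA-MB-231 it was 0.854, 0.855 and 0.930 with 200 nM, against 1.0 in all 3 controls, and was not called (limma adjusted p = 0.11). MRPS9 exon 8 had a PSI of 0.836, 0.735 and 0.781 in U87MG with 200 nM ASO-1570 and 0.786, 0.783 and 0.894 with 50 nM, against 1.0 in all control libraries. In MDA-MB-231 it was 0.926, 0.921 and 0.921 with 200 nM, against 1.0 in each control (limma adjusted p = 0.073). Neither exon has a length that is a multiple of 3. MRPS31 exon 4, chr13:40756873-40757013, 141 bases, had a PSI of 0.451, 0.414 and 0.266 in U87MG with 200 nM ASO-1570, against 1.0 in all 3 controls (limma adjusted p = 0.0016). In this event exon 4 is joined to an exon further downstream and not to exon 5. The form that skips exon 4 therefore lacks exon 5 as well, and the 141 bases are not the whole length lost.

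MRPL39 exon 8 gave a PSI of 0.817, 0.778 and 0.797 in U87MG with 200 nM ASO-1570, against 0.998, 0.998 and 1.0 with control, while the level of this large subunit gene was not called in any treatment comparison. MRPS36 lost an exon of 60 bases in U87MG at 200 nM, with a PSI of 0.263, 0.151 and 0.282, against 0.625, 0.858 and 0.891. Its control libraries were widely spread.

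MRPS18B and MRPL43 moved the other way. MRPS18B, a small subunit protein, has exon 6 in 2 events, and PSI of the one with the smaller p was 0.993, 0.997 and 0.992 in U87MG with 200 nM ASO-1570, against 0.715, 0.708 and 0.694 with the control oligonucleotide. In MDA-MB-231 it was 0.997 in all 3 libraries with 200 nM ASO-1570, against 0.757, 0.779 and 0.838 with control. Over the series the low values were those of cell lines with the control oligonucleotide, while PSI was between 0.997 and 1.0 in every siRNA library, with TRA2B or control siRNA, and between 0.995 and 1.0 in every PDX library. For the MRPL43 cassette exon at chr10:100983948-100984074, absent from the principal transcript, PSI was 0.682, 0.741 and 0.760 in U87MG with 200 nM ASO-1570, against 0.252, 0.363 and 0.316 with control. MDA-MB-231 values overlapped, at 0.648, 0.804 and 0.782, against 0.901, 0.749 and 0.815.

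**Figure D3:**
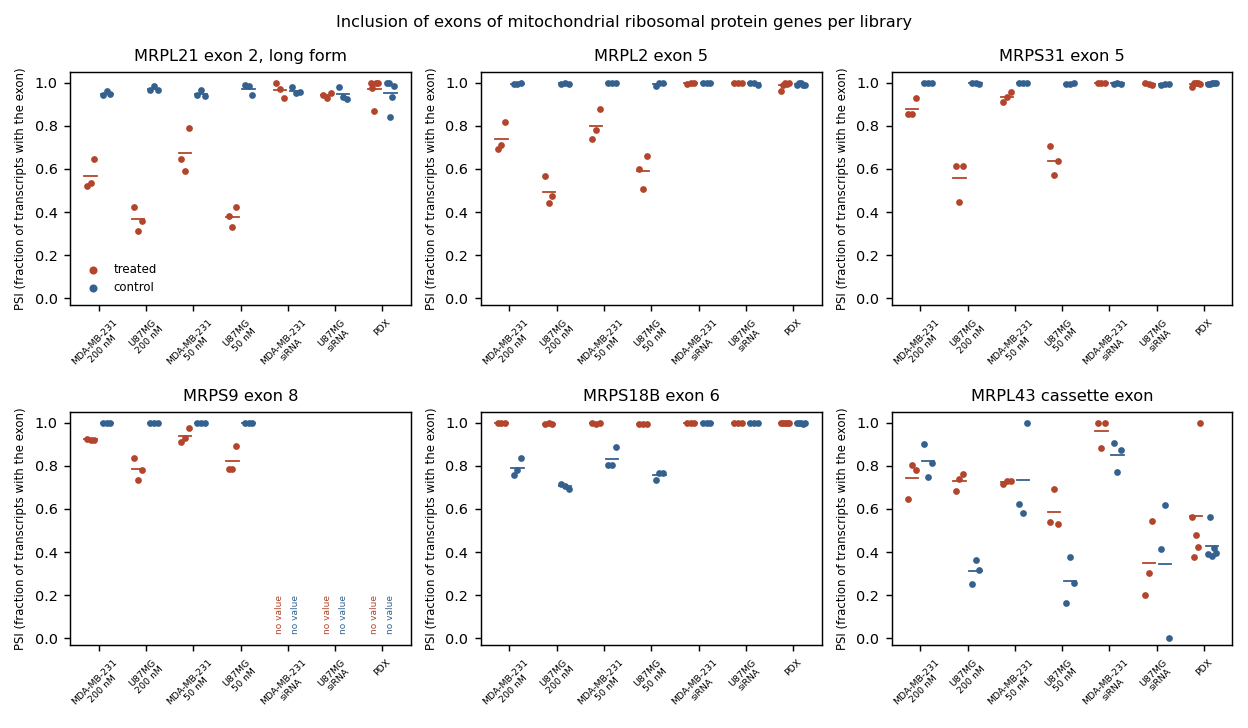
PSI (fraction from 0 to 1, vertical axis) of 6 cassette exons in every library, treated in red left of control in blue, with the mean of each group as a line. The exons of MRPL21, MRPL2, MRPS31 and MRPS9 lie below every control library of the experiment in U87MG and MDA-MB-231 libraries with ASO-1570, and the exon of MRPS18B is low only in the libraries with the control oligonucleotide in cell lines.

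Of the 24 members with a called event in U87MG at 200 nM, 10 rose and 7 fell in level, and of the 54 without one, 15 rose and 8 fell. The background there was 25.8% of all genes rising and 23.9% falling. At 50 nM, 5 of the 14 with a called event rose and 5 fell, and of the 64 without one 26 rose and 11 fell. The background at this dose was 27.9% and 26.7%. The relation between splicing and level was not tested. None of the 6 members with a called event in MDA-MB-231 at 200 nM was called in level. With 11.7% of all genes rising and 13.6% falling there, 6 members are too few to read this as a difference. GAA content of the skipped exons was mixed: MRPS9 exon 8 has 9 GAA triplets, a number reached by 5.75% of annotated cassette exons of like length, and MRPS31 exon 5 has 4, reached by 17.2%. MRPL21 exon 2, counted in its printed 58-base form, has 1, reached by 78.8%, and MRPL2 exon 5 has 2, reached by 68.8%. Of 76587 annotated cassette exons in the 200 nM table, 14% hold GAAGAA, and of the exons printed here only MRPS9 exon 8 does.

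Part of the promoters of these genes hold short motifs that the rule did not use. RefSeq promoters (GRCh38.p14, 250 bases before to 50 after the start) were matched for 69 members and 27305 genes in all, and both strands were searched. The ETS-family motif CCGGAAG stood in 40.6% of member promoters and 10.6% of all, the YY1 motif AAGATGGCG in 18.8% and 1.81%, and the NRF1 core TGCGCA in 18.8% and 8.23%, while TATAAA stood in 2.90% and 12.1%. Of the 6 genes called in all 4 ASO-1570 comparisons, MRPL30, MRPL43 and MRPS31 hold CCGGAAG. No set of promoters from genes of like type or expression was used beside the members. These are descriptions of sequence and say nothing of factor binding in these cells.

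Other genes of mitochondrial gene expression were read from lists written for this comparison. In U87MG, 12 of the 13 mitochondrially encoded protein-coding genes fell at each dose, where 23.9% and 26.7% of all genes fell. The median log2 change was -0.57 at 200 nM and -0.53 at 50 nM. MT-CO1, a core subunit of cytochrome oxidase, had 3036, 2994 and 2813 CPM in U87MG with 200 nM ASO-1570, against 4244, 4300 and 4462 CPM with control. In MDA-MB-231 0 of the 13 fell and 3 and 4 rose at 200 nM and 50 nM, where 11.7% and 10.1% of all genes rose. With siRNA none of the 13 was called in either line.

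Among ribosomal proteins with other symbols, DAP3 and PTCD3 of the small subunit fell in U87MG by 0.60 and 0.88 on the log2 scale at 200 nM, and DAP3 fell in all 4 ASO-1570 comparisons. RBFA, which matures the small subunit rRNA, had 8.95, 7.86 and 8.33 CPM in U87MG with 200 nM ASO-1570, against 17.5, 17.6 and 17.1 CPM with control, and it too fell in all 4. In U87MG at 200 nM, 9 of 24 assembly and rRNA modification genes rose and 7 fell, against 25.8% and 23.9% of all genes. SUPV3L1, a helicase of mitochondrial RNA decay, rose in all 4, with 62.6, 74.1 and 65.3 CPM in U87MG with 200 nM ASO-1570, against 23.7, 22.8 and 21.8 CPM. PPARGC1A, a coactivator of nuclear genes for mitochondria, also rose in all 4, by 1.37 and 2.04 at 200 nM in MDA-MB-231 and U87MG. In U87MG at 200 nM, 1 of 17 mitochondrial aminoacyl-tRNA synthetases rose and 5 fell. The 13 mitochondrial translation factors tested gave 2 rises and 5 falls there, and the 10 regulators of nuclear genes for mitochondria gave 1 rise and 5 falls, each against the same background. With 200 nM in MDA-MB-231 the synthetases gave 5 rises and 1 fall, the translation factors 2 of each, and the regulators 1 rise and 2 falls, where 11.7% of all genes rose and 13.6% fell.

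Per length, the members spanned a wide range of mRNA levels in control cell line libraries. The mean of the 6 control groups ran from 5.65 to 230 CPM per kb of transcript, with a median of 36.0. The highest levels were those of MRPL51 at 230, MRPL49 at 143, MRPL33 at 130 and MRPL19 at 91.4 CPM per kb. The lowest were those of MRPL57 at 5.65, MRPS14 at 8.77, MRPS17 at 9.06 and MRPL50 at 11.5 CPM per kb. On the opposite strand NCAPD2 shares 31.3% of the exon bases of MRPL51, and FAU and SYVN1 share 20.7% of those of MRPL49. BABAM2 on the same strand shares 21.05% of those of MRPL33, so some of these levels may include counts of other genes.

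The lines themselves differed in many members before any treatment against TRA2B, in each set no larger a share than among all genes. Of the 78 members, 47 differed between control MDA-MB-231 and control U87MG libraries at 200 nM, 53 at 50 nM and 58 with siRNA, beside 68.1%, 73% and 77.3% of all genes. In all 3 sets 18 were higher in MDA-MB-231, beside 31.7% of genes, and 26 were lower, beside 32.3%. MRPS10 was 246 ± 12 CPM in MDA-MB-231 and 55.5 ± 0.19 CPM in U87MG at 200 nM (SD, n = 3 each), with log2 differences of 2.15, 2.24 and 2.28 in the 3 sets. MRPL2 followed with 1.78, 1.86 and 1.87 and MRPL48 with 1.70, 1.82 and 1.69. On the lower side MRPL23 was 16.5 ± 0.99 CPM in MDA-MB-231 and 37.7 ± 3.2 CPM in U87MG at 200 nM (SD, n = 3 each), with log2 differences of -1.19, -1.23 and -1.15. The 3 sets share the cell lines and no library.

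**Figure D4:**
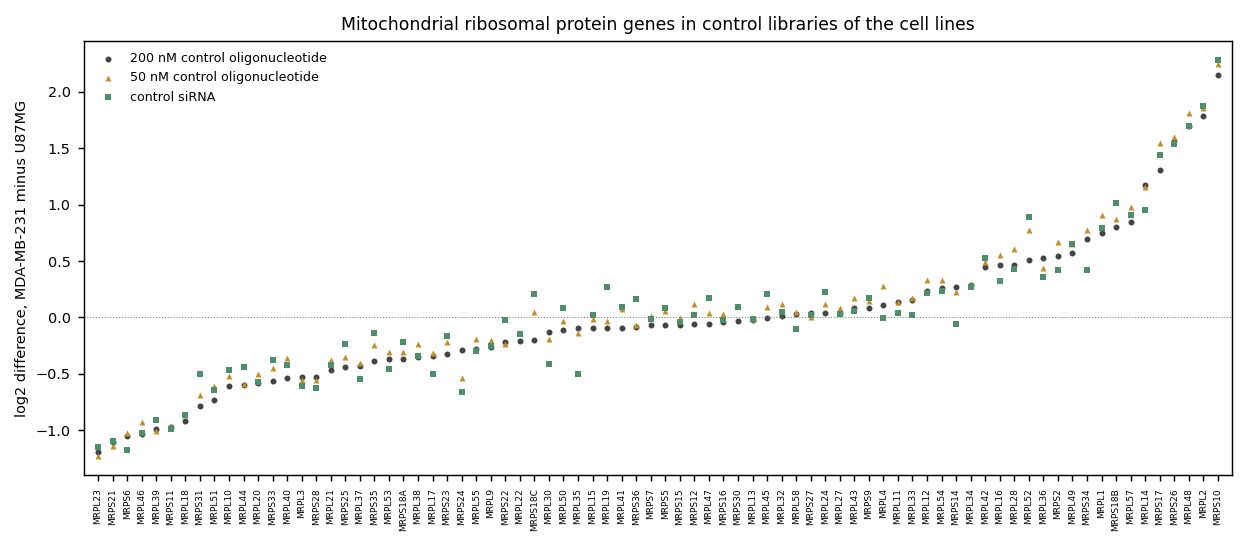
Log2 difference between control MDA-MB-231 and control U87MG libraries (vertical axis) for each of the 78 members, ordered by the 200 nM set, with a symbol for each of the 3 sets. MRPS10 stands highest at 2.15 to 2.28 and MRPL23 lowest at -1.23 to -1.15.

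In the PDX 0 members were called in either direction, as were 0% of the 23812 genes tested, and DESeq2 called 0. The median log2 difference of the members was -0.29 with ASO-1570, against 0.01 for all genes, and 60 of 78 lay below 0. In bulk tumour samples fewer cells of a type and less RNA per cell cannot be told apart. Of the members, 4 had an unadjusted edgeR p below 0.05, each with an adjusted p of 0.487: MRPL1 and MRPL19 lower, MRPL41 and MRPS26 higher. MRPL19 had 38.7, 23.6, 23.3, 14.7 and 18.4 CPM with ASO-1570, against 43.9, 42.6, 30.2, 40.9 and 29.7 CPM with control, and MRPL41 had 12, 23.0, 21.2, 18.2 and 21.5 CPM, against 8.96, 16.9, 9.50, 9.80 and 14 CPM. The groups overlapped for both.

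The PDX libraries differed in the share of counts on mitochondrially encoded genes, which was 22.8% to 75.3% with ASO-1570 and 17.7% to 53.9% with control. The summed member level was 2266, 2081, 1462, 1390 and 1675 CPM with ASO-1570, against 2335, 2219, 1695, 2393 and 1417 CPM with control. The 3 treated libraries and the 1 control library with over 50% of counts on mitochondrially encoded genes had the 4 lowest summed levels. MRPS5 ran the other way in those libraries, at 54.7, 62.2, 159, 169 and 168 CPM with ASO-1570, against 45.8, 82.0, 54.7, 63.7 and 108 CPM with control. None of the breast, leukocyte, endothelial or fibroblast marker genes tested was called. As 0% of all genes were called in the PDX, this is no measure of cell composition. EPCAM, an epithelial adhesion protein, lay at 640, 358, 232, 161 and 243 CPM with ASO-1570, against 759, 577, 449, 444 and 391 CPM with control, and the groups overlapped. PTPRC, which marks leukocytes, was at 0.079 CPM or less with ASO-1570, against 0.0744 to 0.205 CPM with control, and CD3E was at 0 in all 10 libraries. The genes counted are human, so these levels do not measure leukocytes of the host mice. The part of these values in the member levels was not tested beyond a fit without mitochondrially encoded genes, which also called 0 members.

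**Figure D5:**
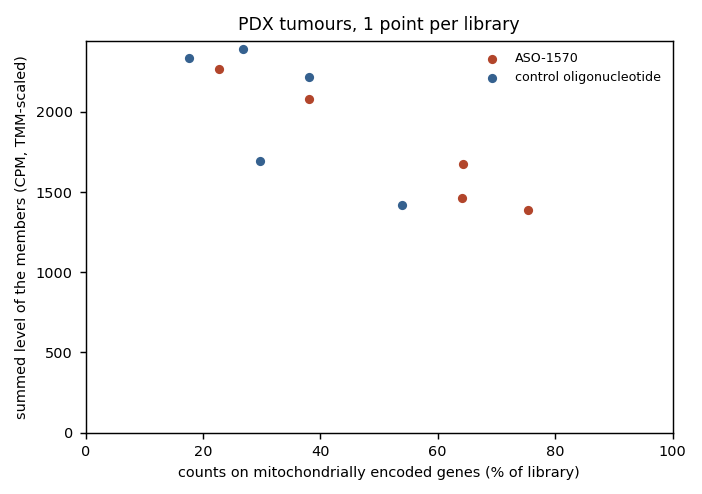
Summed level of the 78 members (CPM, TMM-scaled, vertical axis) against the percentage of counts on mitochondrially encoded genes (horizontal axis) in the 10 PDX libraries, ASO-1570 in red and control oligonucleotide in blue. The 4 libraries above 50% lie lowest, between 1390 and 1675 CPM.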

How the data were processed

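Gene counts per library were deposited as whole numbers by the authors in 4 tables, and PSI was deposited by the authors as a fraction from 0 to 1 per event and library. STAR, StringTie and Trimmomatic are named in the submitters' processing notes with GRCh38, with no versions. How events were quantified, the strand setting, the reads behind a PSI and the removal of mouse reads are not given in the sources used here, so the depth behind each PSI is unknown and no interval is given.

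Each table was filtered with edgeR's filterByExpr, scaled by TMM and fitted with edgeR 4.0.16 (R 4.3.3; quasi-likelihood, 1 coefficient per group), with Benjamini-Hochberg adjustment over all genes tested. DESeq2 1.42.0 was an alternative. CPM values are TMM-scaled. PSI events with values in every library compared and a range of at least 0.05 were tested with limma 3.58.1. They were called at an adjusted p below 0.05 and a mean difference of at least 0.10. An exact two-sided permutation test was also run. Its smallest possible p with 3 against 3 libraries is 0.1, so it could not pass 0.05 in the cell lines. The scripts were tested on simulated data. Exons were read from GENCODE v29 and promoters from RefSeq. No library duplicated another.

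The joint fit of the 50 nM and siRNA tables was added after the data were seen. The members and gene lists were chosen with earlier results of these data known. Named genes were, per treatment comparison, up to 5 rising and 5 falling called members with the largest change, members called in all 3 comparisons of a line, up to 4 per difference between lines with the smallest p, members with a called splicing event, the 4 highest and 4 lowest per length, and up to 3 called genes of each related list with the smallest p. Any other gene, and the exons printed, were chosen after their values were seen. In no comparison did every same-numbered pair of libraries deviate together (correlation over 0.1), so replicate numbers were not taken as pairs.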

Additional observations from a re-analysis of the deposited data

Results flagged for a closer look

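Among the 5 PDX libraries of a group, 2 named members had 1 library apart from the rest by Dixon's criterion, which chance meets in about 1 of 20 groups. Many named members were open to this criterion, so 2 such libraries are not shown to exceed chance. MRPS30 reached 60.3 CPM in 1 library with ASO-1570, where the other 4 lay between 10.3 and 24.8 CPM. MRPS11 was at 9.74 CPM in 1 library with the control oligonucleotide, where the other 4 lay between 13.1 and 14 CPM.

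The effect of ASO-1570 differed between the cell lines for these members by the interaction test of edgeR. At 200 nM the effect in MDA-MB-231 minus that in U87MG was -0.68 for MRPL49, -0.79 for MRPS30, -0.49 for MRPS10 and 0.62 for MRPS31 on the log2 scale, with edgeR adjusted p between 2.49e-04 and 0.0019. At 50 nM it was -0.50 for MRPS10, -0.75 for MRPL49, -0.44 for MRPS16 and -0.93 for MRPL52.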

How the results depend on the processing

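No call of a named gene changed sign under any alternative. Of the alternative values for the named gene calls, 940 kept their side of the threshold and 54 did not, among them those of MRPL24, MRPL43, MRPL40, MRPL1, MRPS17 and MRPS24 in MDA-MB-231 at 200 nM or 50 nM, MRPL43 in U87MG at 200 nM and the siRNA calls of MRPL1, MRPL19 and MRPS5. The causes were not tested.

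Without the filter on low counts the rises were 9 in MDA-MB-231 at 200 nM, 1 in MDA-MB-231 at 50 nM and 20 in U87MG at 50 nM, the siRNA falls in U87MG were 1, and the members lower in MDA-MB-231 in the difference between lines at 50 nM were 13. A fit of the compared groups alone gave 2 rises in MDA-MB-231 at 200 nM. DESeq2 gave 11 falls in MDA-MB-231 at 200 nM and 4 with siRNA. With a replicate block the rises in MDA-MB-231 at 200 nM were 4, the siRNA falls in U87MG were 1, and the splicing calls were 0 in MDA-MB-231 at 200 nM and 14 in U87MG at 50 nM. With no minimum range of PSI there was 1 splicing call in MDA-MB-231 at 200 nM, and with a difference of at least 0.05 there were 84 in U87MG at 200 nM.

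Leaving out 1 library at a time gave, for rises and falls, 1 to 29 and 5 to 12 in MDA-MB-231 at 200 nM, 11 to 23 and 12 to 16 in U87MG at 200 nM, 1 to 3 and 11 to 14 in MDA-MB-231 at 50 nM, 21 to 29 and 14 to 21 in U87MG at 50 nM, 0 to 0 and 0 to 1 in MDA-MB-231 with siRNA, 0 to 0 and 0 to 2 in U87MG with siRNA, and 0 to 0 for both in the PDX. Differences between lines gave 6 to 11 higher and 4 to 21 lower at 200 nM, 5 to 10 higher and 16 to 25 lower at 50 nM and 0 to 0 with siRNA. The joint fit gave 2 to 6 higher and 10 to 13 lower in MDA-MB-231 and 22 to 28 higher and 12 to 16 lower in U87MG. Control lines gave 43 to 44, 50 to 53 and 55 to 58 differences. Splicing calls were 0 to 16 and 0 to 4 in MDA-MB-231 at 200 nM and 50 nM, 40 to 50 and 14 to 38 in U87MG, and 0 to 0 with siRNA and in the PDX.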

Other observations

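In the PDX the 13 mitochondrially encoded protein-coding genes had a median log2 difference of 1.56 with ASO-1570. The 2 mitochondrial rRNAs had one of 1.75, and none of these genes was called. In U87MG at 200 nM both mitochondrial rRNAs rose while 12 of the 13 mitochondrially encoded protein-coding genes fell.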
